A study of Mus musculus with 8 samples.

Results

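The distal ends of the 19 mouse autosomes, next to the telomere, are described here as bound by Brdt in male germ cells: 3832 of 426082 Brdt islands lay there, chosen by position alone as the islands in the last 1 Mb. Brdt, a BET protein made in the testis, binds acetylated histone tails through its bromodomains. Mouse chromosomes are telocentric: the centromere lies next to the low-numbered end of the sequence and the distal end runs into a gene-bearing subtelomere. In meiotic prophase the telomeres attach to the nuclear envelope and move along it while homologous chromosomes pair, and after meiosis the genome of the round spermatid is prepared for compaction.

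Anti-Brdt ChIP-seq libraries came from spermatocytes (meiotic) and round spermatids (post-meiotic) of adult wild-type C57BL/6 mice and of adult mice in which the first bromodomain of Brdt is deleted (Brdt BD1del). Cells were enriched on a BSA gradient, and for wild type the fractions of 10 mice were pooled and the chromatin was cut with MNase. For BD1del the sources used here do not give the strain, the pool or the chromatin preparation. Each of the 4 combinations of stage and genotype had 1 ChIP library and 1 input library, so there was no replicate error and no comparison below has a test between groups. The purity of the fractions could not be read from ChIP islands.

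The deposited data were 4 lists of islands, stretches of mm9 in which ChIP reads clustered above a control library. The outer limit of each autosome was taken as the largest island end over the 4 lists, and the members are the islands that start within the 1 Mb before it. There were 439 members of 36615 islands in wild-type spermatocytes and 745 of 74968 in wild-type round spermatids. In BD1del there were 952 of 112671 in spermatocytes and 1696 of 201828 in round spermatids. These totals also count islands outside the autosomes. Autosomal islands numbered 29531, 67996, 105380 and 190782 in the same order. The members were compared with the islands that start from 1 to 6 Mb before the same limit, called the adjacent 5 Mb below. Of these there were 1610, 3347, 4350 and 8188 in the same order. The limit is set by an island and not by the assembly, so each window holds at least 1 island at its edge by construction. Telomere repeats themselves were not measured.

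On most autosomes, not always the same ones, each list on its own came close to the limit. The last island lay within 10 kb of it on 10 of 19 autosomes in spermatocytes and 13 in round spermatids of wild type, and on 12 and 14 in those of BD1del. On chromosome 2 the last island of every list ended at the same base, 181748000. These islands lay within 800 bases and were rich in control reads, with 588, 765, 422 and 290 in the same order of lists. The medians per member were 103, 62, 72 and 27. The widest gaps were 119.8 kb on chromosome 5 in wild-type spermatocytes, 103.2 kb and 114.6 kb on chromosome 3 in wild-type round spermatids and BD1del spermatocytes, and 34.4 kb on chromosome 7 in BD1del round spermatids.

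Members of the wild-type lists held 71242 ChIP and 81558 control reads (spermatocytes) and 47521 and 85678 (round spermatids). Those of the BD1del lists held 55397 and 102567 (spermatocytes) and 65923 and 86707 (round spermatids). Control libraries exceeded their ChIP libraries in depth by factors of 1.79, 3.79, 5.64 and 5.45 in the same order. The lists are labelled as F3 tags for wild type and as F3 and F5 tags for BD1del, so genotype and read set cannot be told apart in any comparison between wild type and BD1del. Intervals below are exact (Clopper-Pearson) 95% intervals for counting error only, and neighbouring islands are not independent.

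In the lists as deposited, the autosome ends were more densely covered by Brdt islands than the adjacent 5 Mb in all 4. The margin was widest in wild-type spermatocytes. There islands covered 6.61% of the last 1 Mb and 3.80% of the adjacent 5 Mb, a ratio of 1.74. Wild-type round spermatids had 7.05% and 5.58%, which is 1.26 times as much at the ends. In BD1del spermatocytes the shares were 7.70% and 6.24%, and in BD1del round spermatids 7.48% and 6.04%, ratios of 1.23 and 1.24. At the very ends the lists thus lay between 6.61% and 7.70%, while in the adjacent 5 Mb they ranged from 3.80% to 6.24%.

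In numbers of islands the difference was smaller. Wild-type spermatocytes had 23.1 islands per Mb at the ends and 16.9 in the adjacent 5 Mb, a density ratio of 1.36 (1.22 to 1.52). The ratio was 1.11 (1.03 to 1.21) in wild-type round spermatids and 1.09 (1.02 to 1.17) in BD1del spermatocytes. In BD1del round spermatids, with 89.3 and 86.2 islands per Mb, it was 1.04, and its interval of 0.982 to 1.09 included 1. The interval of wild-type round spermatids also included 1 without chromosome 18, at 1.06 (0.976 to 1.16), and with the windows moved 100 kb towards the centromere, at 1.04 (0.954 to 1.12). Members were also longer in 3 lists. Their median length was 2200 bases against 1800 in wild-type spermatocytes, and in BD1del it was 1400 against 1200 (spermatocytes) and 600 against 400 (round spermatids). Wild-type round spermatids had a median of 1400 bases in both windows.

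**Figure D1:**
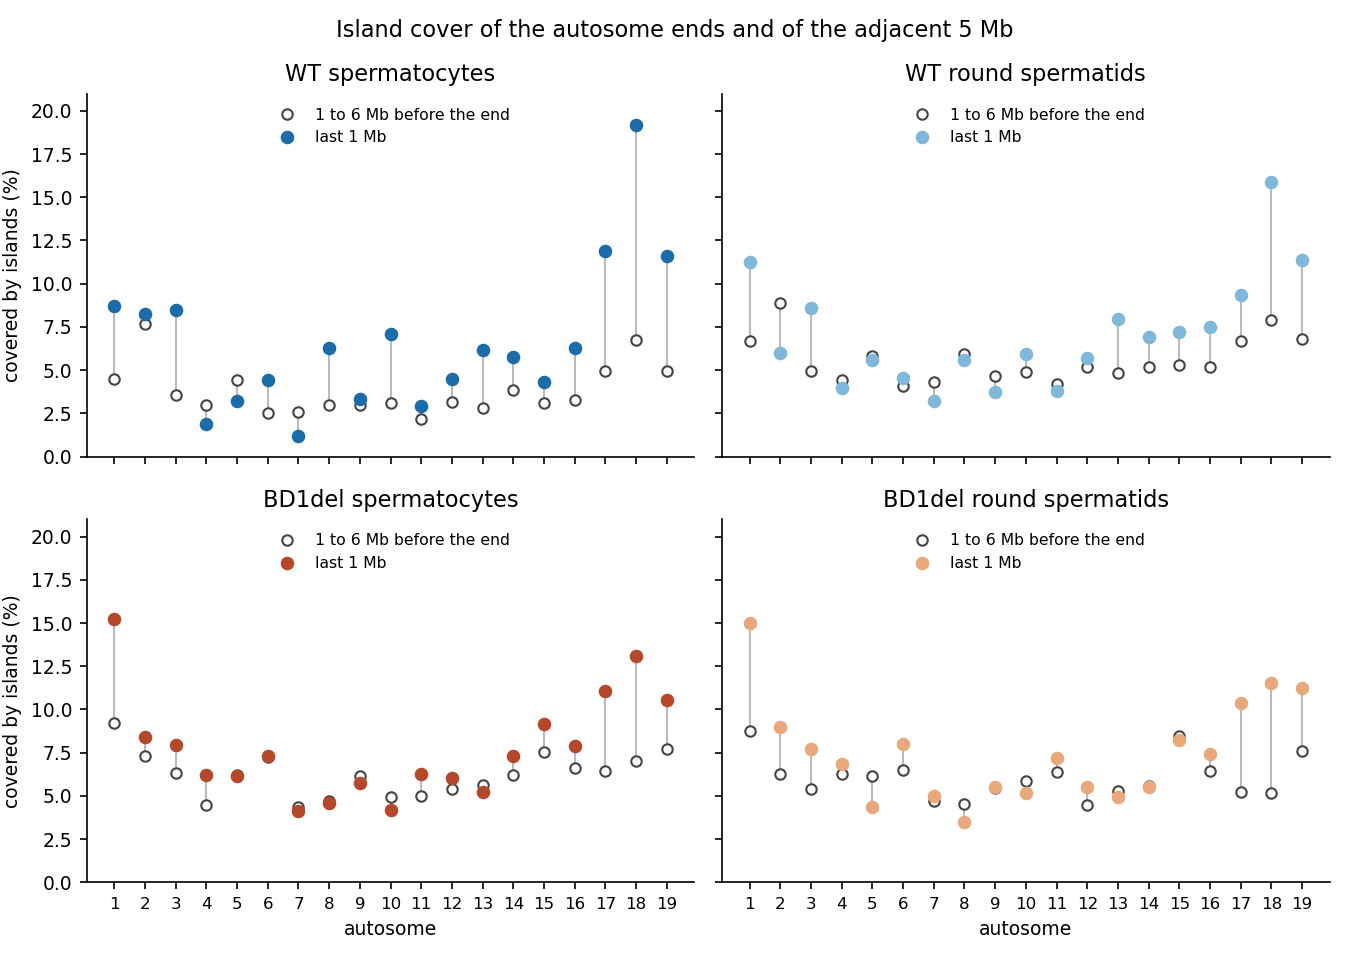
Share of sequence covered by Brdt islands (percent, vertical axis) for each autosome (horizontal axis) in the last 1 Mb (filled points) and in the adjacent 5 Mb (open points), 1 panel per list and 1 library per panel, without error bars. The end lies above its neighbour on 16 of 19 autosomes in wild-type spermatocytes, with chromosome 18 highest at 19.2%.

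The end was more covered than the adjacent 5 Mb on 16 of 19 autosomes in wild-type spermatocytes, where 45.6% of all 1-Mb autosomal windows exceeded the 5 Mb next to them on the centromere side. The exceptions were chromosomes 4, 5 and 7. In wild-type round spermatids the count was 12 of 19, beside 48.2% of all windows. It was 13 of 19 in both BD1del lists, beside 48.6% in spermatocytes and 49.2% in round spermatids. With all windows moved 100 kb towards the centromere the counts were 12, 11, 14 and 14 in the same order of lists. With an FDR of at most 1e-10 they were 12, 11, 10 and 11. At least 1.5 times the cover of the adjacent 5 Mb was found at 11 of 19 ends in wild-type spermatocytes, beside 21.9% of all windows. That count was 5 in wild-type round spermatids, beside 10.5% of all windows, and 3 in each BD1del list, beside 4.07% in spermatocytes and 3.50% in round spermatids.

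Among all 2406 windows of 1 Mb on the autosomes, the ends ranked high. Of the 19 ends, 10 were among the most covered 10% in wild-type spermatocytes (10.0% of all windows by construction). For wild-type round spermatids the count was 8 (10.1%), and for BD1del it was 6 in spermatocytes (9.98%) and 7 in round spermatids (10.1%). The ends of chromosomes 1, 17, 18 and 19 were in this class in every list. The median end stood at the 91.1st percentile in wild-type spermatocytes, and at 84.5, 82.5 and 86.1 in the other lists in the order used above. Above the median window stood 17 ends in wild-type spermatocytes and 15 in each of the other 3 lists.

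Cover was highest in the last 0.2 Mb of the steps compared. In wild-type spermatocytes islands covered 4.35% of sequence from 0.5 to 1 Mb before the limit, 6.95% from 0.2 to 0.5 Mb and 11.7% of the last 0.2 Mb, which was 3.09 times the adjacent 5 Mb. In wild-type round spermatids the same steps were 5.84%, 6.80% and 10.5%, the last being 1.88 times the adjacent 5 Mb. BD1del spermatocytes had 6.97%, 7.66% and 9.60%, and BD1del round spermatids 6.94%, 7.04% and 9.48%, so that their last 0.2 Mb had 1.54 and 1.57 times the cover of the adjacent 5 Mb. The last 0.2 Mb exceeded the adjacent 5 Mb on 16, 15, 13 and 14 of 19 autosomes in the same order of lists.

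**Figure D2:**
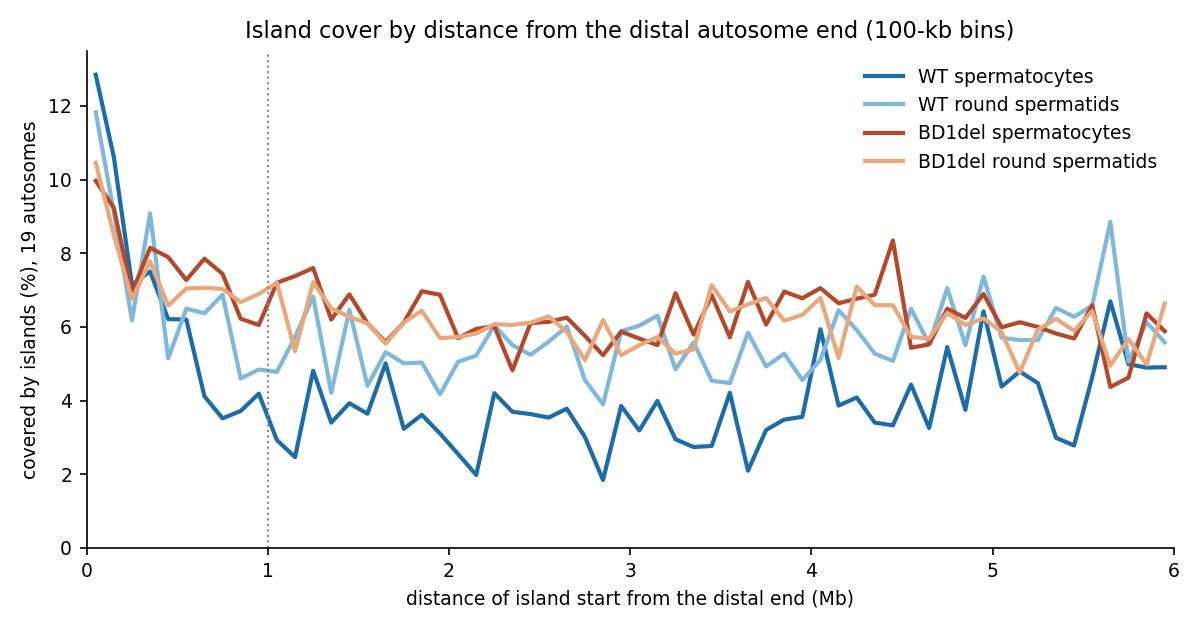
Share of sequence covered by islands (percent, over 19 autosomes) against the distance of the island start from the distal limit (Mb), in 100-kb bins, 1 line per list; the dotted line marks 1 Mb. In the bin next to the limit wild-type spermatocytes are highest at 12.9%, although they are the lowest list over most of the adjacent 5 Mb.

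Wild-type spermatocytes, the list with least cover in the adjacent 5 Mb, had the most in the last 0.2 Mb. In the bin of 100 kb next to the limit, wild type had 12.9% cover in spermatocytes and 11.8% in round spermatids, while BD1del had 9.97% and 10.5%. From 200 to 300 kb it was 7.15%, 6.18%, 6.93% and 6.76%. Just inside it, from 900 to 1000 kb, cover was 4.19%, 4.84%, 6.05% and 6.89%, and just outside, from 1000 to 1100 kb, it was 2.93%, 4.78%, 7.20% and 7.20%. Moving all windows 100 kb towards the centromere, which leaves out the bin that holds the limiting island, gave cover ratios of 1.45, 1.13, 1.19 and 1.19.

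By fold, the excess of islands at the ends lay in the lower classes of each list. The deposited fold of an island is its ChIP reads over its control reads scaled by library size, and its level is not directly comparable between lists, so each list was divided into 5 classes of equal size by its own folds over all autosomes. In the class of lowest fold the density ratio of ends to adjacent 5 Mb for wild type was 2.22 (1.77 to 2.79) in spermatocytes and 1.55 (1.33 to 1.81) in round spermatids. In BD1del it was 1.48 (1.28 to 1.70) in spermatocytes and had an interval of 1.36 to 1.67 in round spermatids. In the class of highest fold it was 0.646 (0.471 to 0.869), 0.886 (0.710 to 1.10), 0.837 (0.699 to 0.996) and 0.809 (0.712 to 0.918). Low-fold islands were thus more numerous at the ends in every list, and high-fold islands less numerous, with an interval below 1 in 3 of the lists.

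The fold of the members was lower than that of their neighbours in each list. Median folds at the ends and in the adjacent 5 Mb were 1.60 and 1.80 for spermatocytes and 2.35 and 2.71 for round spermatids of wild type. In the BD1del lists they were 3.33 and 3.83 (spermatocytes) and 6.12 and 7.22 (round spermatids). It was lowest in the last 0.2 Mb, at 1.54, 2.07, 3.03 and 5.13. A fold of at least 2 was reached by 21.6% (17.9 to 25.8%) of the members in wild-type spermatocytes, beside 31.8% of all autosomal islands. The same shares were 66.2% beside 77.1% in wild-type round spermatids, 91.5% beside 94.2% in BD1del spermatocytes and 97.3% beside 98.7% in BD1del round spermatids.

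The direction depended on how strict the list was in wild type, and for density also in BD1del round spermatids. With islands of fold at least 2 only, the density ratio in wild-type spermatocytes was 0.745, the cover ratio 0.797 and the number of denser ends 7 of 19. In wild-type round spermatids the values were then 0.967, 0.972 and 7 of 19. In BD1del the cover ratios with that limit were 1.18 in each list. The limit was not equally strict, so these ratios do not compare the genotypes. It left 95 of 439 members in wild-type spermatocytes and 493 of 745 in wild-type round spermatids. In BD1del it left 871 of 952 in spermatocytes and 1650 of 1696 in round spermatids. With a deposited FDR of at most 1e-10, which left 86, 202, 576 and 1266 members, cover was still higher at the ends in all 4 lists, at ratios of 1.40, 1.15, 1.17 and 1.17, but the density ratio of wild-type spermatocytes was 0.919 and that of BD1del round spermatids 0.974. With equal lists of 10000 islands, which left 75 to 90 members, the cover ratios were 1.39, 1.12, 1.97 and 1.60.

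Control reads were also denser in islands at the ends. Over islands of at least 1000 bases there were 62.1 control reads per kb at the ends and 56.3 in the adjacent 5 Mb in wild-type spermatocytes, and 63.1 and 51.0 in wild-type round spermatids. The values were 70.4 and 56.7 in BD1del spermatocytes and 64.4 and 49.9 in BD1del round spermatids. The part of control read density in the cover of the ends was not tested. When the islands of highest control density (1% of each list) were left out, the cover ratios were 1.75, 1.25, 1.21 and 1.20.

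Single autosomes differed, and on some of them the lists also differed widely, with ratios of end to adjacent cover from 0.763 to 2.12 on chromosome 8. Ordered by the median over the lists of the ratio of end to adjacent cover, chromosome 18 stood first at 2.12, followed by chromosome 17 at 1.84 and chromosome 1 at 1.70. At the other end stood chromosome 8 at 0.958, chromosome 5 at 0.849 and chromosome 7 at 0.844. The end was more covered than its neighbour in all 4 lists on 8 autosomes (1, 3, 6, 12, 16, 17, 18 and 19) and in none on chromosome 5.

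**Figure D3:**
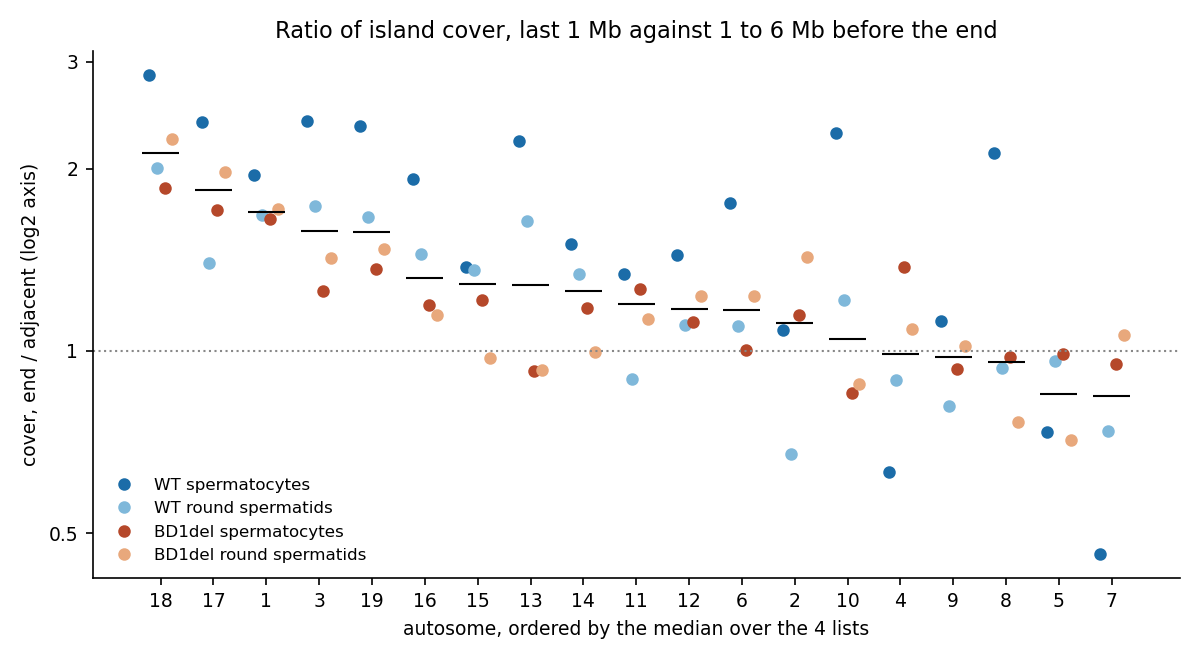
Ratio of island cover in the last 1 Mb to that in the adjacent 5 Mb (log2 axis) for each autosome, ordered by the median over the 4 lists (black bars); each point is 1 list. Chromosomes 18, 17 and 1 lead and chromosomes 5 and 7 come last, and wild-type spermatocytes span the widest range, from 0.462 to 2.86.

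The end of chromosome 18, which reaches to 90771800, was the most covered in both wild-type lists. Wild-type islands covered 19.2% of it in spermatocytes and 15.9% in round spermatids, and BD1del islands 13.1% and 11.5%. Its adjacent 5 Mb were covered to 6.72%, 7.92%, 7.04% and 5.16%. As deposited, the lists thus ran from highest in wild-type spermatocytes to lowest in BD1del round spermatids at this end. The order of genotypes over the ends depended on the list. With an FDR of at most 1e-10 or a fold of at least 2, wild type was higher at 0 of 19 ends at either stage. Those limits were not equally strict, and in spermatocytes the FDR limit left 86 wild-type and 576 BD1del members. With equal lists of 10000 islands, wild type was higher at 17 of 19 ends in spermatocytes and at 13 in round spermatids. Of all bases covered at the ends, wild-type spermatocytes had 15.3% on chromosome 18 and BD1del round spermatids 8.12%. Without chromosome 18 the cover ratio of the remaining ends was 1.63, 1.20, 1.19 and 1.19, and without chromosomes 1, 17, 18 and 19, the ends that rank in the top 10% in every list, it was 1.45, 1.11, 1.09 and 1.07.

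Chromosome 17 had an end covered to 11.9%, 9.34%, 11.0% and 10.4% in the order used above, against 4.98%, 6.70%, 6.47% and 5.25% in its adjacent 5 Mb. Chromosome 1 was the most covered end in BD1del, at 15.2% in spermatocytes and 15.0% in round spermatids, and had 8.72% and 11.2% in the wild-type lists. In the lists as deposited, its order of genotypes was the opposite of that on chromosome 18. Its adjacent 5 Mb had the same order as its end, at 9.24% and 8.74% in BD1del and 4.47% and 6.70% in wild type. Chromosome 19 was covered to 11.6%, 11.4%, 10.5% and 11.2%, nearly alike in all lists.

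The ends of lowest median ratio were those of chromosomes 7, 5 and 8. On chromosome 7, where all members start beyond 151.5 Mb, only 7 islands covering 1.20% were found in wild-type spermatocytes, against 2.60% in the adjacent 5 Mb. The other lists covered 3.20%, 4.12% and 5.02% of it, against 4.34%, 4.34% and 4.73%, so that in BD1del round spermatids the end exceeded its neighbour. On chromosome 5 the shares were 3.24%, 5.58%, 6.16% and 4.38%, each below its adjacent 5 Mb. On chromosome 8 the end of wild-type spermatocytes was covered to 6.30% against 2.97%, more than its neighbour. In the other 3 lists it had 5.58%, 4.60% and 3.48%, each below its adjacent 5 Mb, and 3.48% was the lowest cover of any end in BD1del round spermatids. Chromosome 10 lay above its neighbour in both wild-type lists, at ratios of 2.29 and 1.21, and below it in both BD1del lists, at 0.852 and 0.882.

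Gene order at these ends is known from the RefSeq annotation of GRCm38.p6, another build than that of the islands, so genes were not placed relative to islands. The last protein-coding genes of chromosome 18 there include Tmx3, a disulfide isomerase of the endoplasmic reticulum, and Dok6, an adaptor of receptor tyrosine kinases. Chromosome 17 ends with Adcyap1, which encodes the neuropeptide PACAP, and Mettl4, a methyltransferase gene, and then the predicted gene Gm20939. Chromosome 1 ends with the complement genes Cd46, Cr1l and Cr2. The end of chromosome 7 carries Mrgprf and Mrgprd, which encode Mas-related receptors, and that of chromosome 5 carries the vomeronasal receptor gene Vmn2r18 and Rfc3, a subunit of the clamp loader of DNA replication.

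The comparison of stages in wild type differed between the ends and the rest of the autosomes. Over all autosomal 1-Mb windows spermatocytes had 0.714 times the cover of round spermatids, and in the adjacent 5 Mb 0.680 times. At the ends the ratio was 0.937. Cover was higher in spermatocytes than in round spermatids at 6 of 19 ends (chromosomes 2, 8, 10, 17, 18 and 19), beside 10.5% of all 1-Mb windows. This count was 0 with a fold of at least 2 and 16 with equal lists of 10000 islands. In BD1del the ratio of spermatocytes to round spermatids was 1.03 at the ends and 1.09 over the autosomes, and spermatocytes were higher at 12 of 19 ends, beside 65.0% of all windows.

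Between genotypes the ends were closer than the adjacent 5 Mb in spermatocytes, and hardly so in round spermatids. In spermatocytes wild type had 0.557 times the cover of BD1del over the autosomes, 0.609 times in the adjacent 5 Mb and 0.858 times at the ends. Wild type was higher at 7 of 19 ends (chromosomes 3, 8, 10, 13, 17, 18 and 19), beside 7.98% of all windows. In round spermatids wild type had 0.852 times the cover of BD1del over the autosomes, 0.925 times in the adjacent 5 Mb and 0.943 times at the ends, and it was higher at 10 of 19 ends, beside 23.9% of all windows. Both counts depended on the list. With an FDR of at most 1e-10, or with a fold of at least 2, wild type was higher at 0 of 19 ends at either stage. Neither limit was equally strict in both genotypes. With 10000 islands per list wild type was higher at 17 ends in spermatocytes and at 13 in round spermatids.

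Members were shared between lists more often than islands of the adjacent 5 Mb or of the autosomes. An island counted as shared when it had at least 1 base in common with an island of the other list. Of the members of wild-type spermatocytes, 64.2% (59.6 to 68.7%) met an island of wild-type round spermatids, beside 57.5% in the adjacent 5 Mb and 58.1% on all autosomes. Conversely, 39.6% (36.1 to 43.2%) of the round spermatid members were met, beside 28.8% and 26.6%. In BD1del, 31.1% (28.2 to 34.1%) of the spermatocyte members met a round spermatid island, beside 24.2% and 21.6%, and 18.2% (16.4 to 20.1%) of the round spermatid members met a spermatocyte island, beside 13.2% and 12.3%.

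Between genotypes the pattern was the same. Of the wild-type spermatocyte members 39.0% (34.4 to 43.7%) met a BD1del spermatocyte island, beside 32.5% in the adjacent 5 Mb and 30.4% on all autosomes. Of the BD1del spermatocyte members 18.8% (16.4 to 21.4%) met a wild-type island, beside 12.7% and 8.96%. In round spermatids 34.4% (31.0 to 37.9%) of the wild-type members and 15.7% (14.0 to 17.5%) of the BD1del members met an island of the other genotype, beside 28.0% and 26.4%, and 12.0% and 9.79%. A list that covers more sequence is met more often whatever the positions, and both lists of every pair covered more at the ends; the part of this in the shares was not tested. With a fold of at least 2, 42.1% (32.0 to 52.7%) of the wild-type spermatocyte members met wild-type round spermatids, beside 40.9% in the adjacent 5 Mb, and 22.1% (14.2 to 31.8%) met BD1del spermatocytes, beside 24.9%. Without chromosome 18, 62.1% (57.0 to 67.0%) of the wild-type spermatocyte members met wild-type round spermatids and 35.3% (30.5 to 40.3%) met BD1del spermatocytes. These intervals include the shares of the adjacent 5 Mb, from which chromosome 18 was not left out. The intervals of the remaining pairs stayed above those shares. For BD1del spermatocyte members by BD1del round spermatids it was 29.2% (26.2 to 32.3%), beside 24.2%. The margin was narrow for wild-type round spermatid members by BD1del, at 31.7% (28.2 to 35.4%) beside 28.0%. Members of chromosome 18 were met more often than the rest, for example 62.5% (49.5 to 74.3%) of its 64 BD1del spermatocyte members by wild-type spermatocytes, against 15.7% (13.3 to 18.2%) of the members on the other 18 autosomes.

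**Figure D4:**
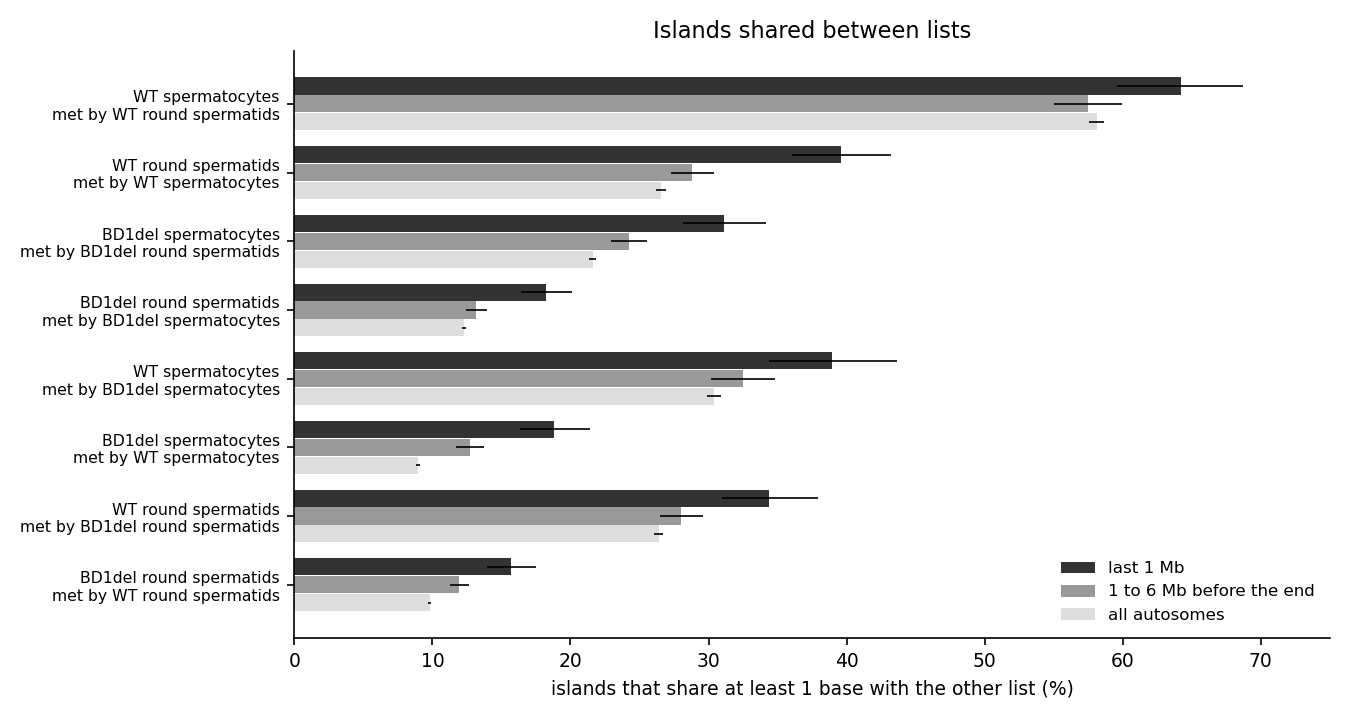
Share of islands (percent) that have at least 1 base in common with an island of a second list, for members (dark), islands of the adjacent 5 Mb (grey) and all autosomal islands (light); error bars are exact 95% intervals for counting error only. In each of the 8 rows the dark bar is the longest.

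All 3 other lists had an island at 24.4% (20.4 to 28.7%) of the members in wild-type spermatocytes, beside 15.8% of all autosomal islands. The same share was 14.4% beside 6.78% in wild-type round spermatids, 11.3% beside 4.21% in BD1del spermatocytes and 6.37% beside 2.33% in BD1del round spermatids. Members that met no island of any other list made up 19.8%, 42.1%, 58.4% and 70.7% of the lists in that order, beside 25.2%, 51.9%, 70.3% and 79.6% of all autosomal islands. Members without a partner were thus the fewer the shorter the list, at the ends as on all autosomes.

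Merged over the lists, the members formed 2756 separate sites, runs of overlapping islands of any list. Of these, 103 (3.74%) held an island of all 4 lists, beside 1.52% of the sites on all autosomes and 2.05% in the adjacent 5 Mb. Sites of a single list numbered 2156, or 78.2%, beside 84.3% on all autosomes. Sites that joined just both BD1del stages numbered 145 (5.26%, beside 4.50% on all autosomes), and those of both wild-type stages 74 (2.69%, beside 2.13%). Sites of just the same stage in both genotypes numbered 63 for round spermatids (2.29%, beside 2.34%) and 21 for spermatocytes (0.762%, beside 0.432%). Under the FDR limit of 1e-10 the sites of all 4 lists numbered 18, and with a fold of at least 2 they numbered 9. Without the 1% of islands of highest control density in each list they numbered 83.

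The sites found in all 4 lists were unevenly spread over the autosomes. Chromosome 18 held 27, chromosome 19 held 19 and chromosome 1 held 15, together 59.2% of the 103. These ends also held many members of the single lists. In the order of lists used above, chromosome 18 had 59, 83, 64 and 96, chromosome 19 had 53, 74, 73 and 115, and chromosome 1 had 23, 47, 69 and 115. Chromosome 18 had 26.2% of the sites, beside 15.3%, 11.85%, 8.94% and 8.12% of the bases covered at the ends. The part of cover in this spread was not tested. Chromosome 17 had 9, and chromosomes 5, 7, 8 and 11 had none. Of the sites, 35 lay within 200 kb of the limit and 63 within 500 kb. By their starts, 133 of 439, 200 of 745, 203 of 952 and 354 of 1696 members lay within 200 kb. From 200 to 500 kb there were 139, 199, 282 and 493 members. The median width of the sites was 4200 bases, in a range from 400 to 21400. Median folds at the sites, each taken from the highest island with at least 10 control reads, were 1.52, 1.89, 2.85 and 3.33, which increase over the lists in the same order as the medians of all autosomal islands (1.70, 2.79, 3.84 and 7.12).

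**Figure D5:**
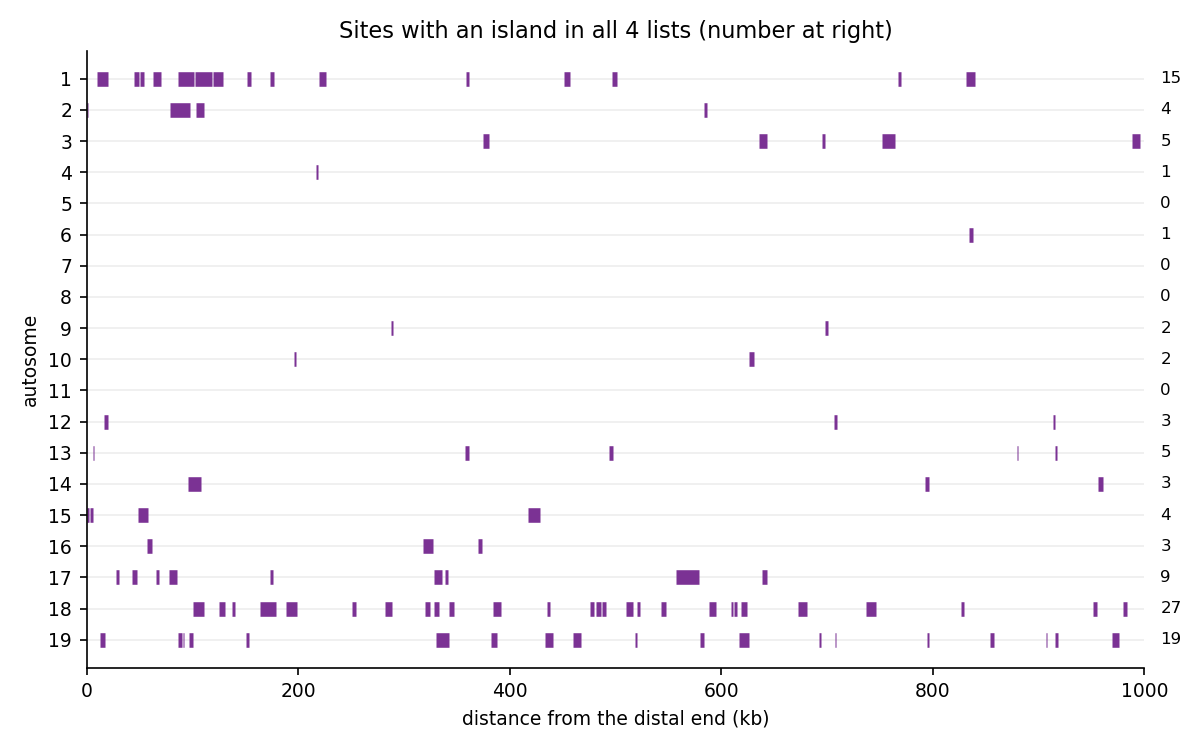
Positions of the 103 sites with an island in all 4 lists, by autosome (vertical axis) and distance from the distal limit (kb, horizontal axis), with the number of sites per autosome at the right; the length of each mark is the width of the site. Sites crowd on chromosomes 1, 17, 18 and 19, and chromosomes 5, 7, 8 and 11 have none.

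The site whose lowest fold over the lists was highest lay on chromosome 9, 123780601 to 123782400, 288 kb from the limit. Its folds, in the order used above, were 2.68, 3.95, 4.05 and 5.34, from 760, 578, 363 and 389 ChIP reads. Control reads were also many there. Within its 1800 bases the islands held 507, 554, 506 and 397 of them, beside medians of 103, 62, 72 and 27 per member. The next was on chromosome 18, 90161201 to 90162800, with folds of 2.82, 2.63, 8.35 and 7.83. It rested on 93, 32, 37 and 23 ChIP reads. A site on chromosome 19, 60647401 to 60650000, had folds of 2.63, 2.68, 4.01 and 3.70 from 85 to 116 ChIP reads.

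Another site lay 6 kb from the limit of chromosome 13, at 120275601 to 120276800. It had nearly level folds of 2.39, 2.97, 2.51 and 2.87. The last of the 5, on chromosome 15 from 103064601 to 103076800, joined 8 islands and had folds of 4.21, 2.39, 9.77 and 9.41 in the highest islands with at least 10 control reads.

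The longest members were the same stretches in several lists. On chromosome 17 an island of 19.2 kb, 94693601 to 94712800, was the longest of wild-type spermatocytes, with a fold of 1.56 from 3957 ChIP and 4544 control reads. Round spermatid islands covered 49.0% of it in wild type and 47.9% in BD1del, and BD1del spermatocyte islands covered 66.7%. In number its control reads were the most of any member of its list, and per kb they were 237, against a median of 45.0 per kb in members of at least 1000 bases.

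On chromosome 2 the stretch from 181651001 to 181667200, 80.8 kb from the limit, was an island of 16.2 kb in wild-type spermatocytes. Islands of 11.4 kb and 11.2 kb that start at 181656201 were the longest of wild-type round spermatids and BD1del spermatocytes. Their folds were 1.44, 1.44 and 1.85, from 3171, 2339 and 2444 control reads. On chromosome 1 the longest BD1del round spermatid member, 197176601 to 197185400, lay 10.0 kb from the limit with a fold of 1.97 and met islands of all other lists. The third longest island of wild-type spermatocytes, 14.6 kb on chromosome 18 from 90593601 to 90608200, reached a fold of 1.45. Islands of wild-type round spermatids covered 89.0% of it, and those of BD1del 63.0% (spermatocytes) and 45.2% (round spermatids).

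The most enriched members were short, from 400 to 1600 bases. With at least 10 control reads, the leading wild-type spermatocyte member was chromosome 15, 102500601 to 102502000, at a fold of 9.91 from 72 ChIP and 13 control reads. It was followed by chromosome 9, 123760201 to 123761800, at 8.83, close to the chromosome 9 site found in all lists. In wild-type round spermatids the leading member was chromosome 14, 124518601 to 124519200, at 11.1. None of these met an island of another list. The next in wild-type round spermatids, chromosome 6, 149089201 to 149090000, at 9.94, was covered whole by a wild-type spermatocyte island and to 75% in BD1del round spermatids. The third, chromosome 1, 196920801 to 196921200, at 9.91, was covered whole in both BD1del lists.

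In BD1del spermatocytes the leading members were chromosome 19, 60543201 to 60544400, at a fold of 23.1, and chromosome 5, 151616401 to 151617000, at 23.07. In BD1del round spermatids they were chromosome 16, 97884801 to 97885200, at 21.3, and chromosome 11, 121661001 to 121661400, at 20.2. Each rested on 10 to 12 control reads. None of these 4 met an island of any other list, as was usual in BD1del, where 58.4% and 70.7% of the members met none. They lay from 178 to 920 kb from the limit, outside the 100-kb bin where cover was highest.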

How the data were processed

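Per the submitters' processing notes the authors called islands with SICER and mapped to mm9, giving 1 list per ChIP library. Per the labels the window was 200 and the gap 600 bases. Aligner, read filters, SICER version and control assignment are not given in the sources used here. Islands carried ChIP and control read counts as deposited by the authors without normalization, a deposited p-value and FDR, and the deposited fold, the ratio of ChIP to control reads scaled by library size. The scaling factor, recovered from counts and fold, was constant within each list.

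Positions were written 1-based. Islands were assigned to windows by their start, and cover is the summed length of those islands over the window. Windows of 1 Mb tiled back from each limit served as background. Sites are runs of islands that overlap by at least 1 base. Python 3.11.15, pandas 2.3.3 and scipy 1.17.1 were used, and window assignment and overlap counting were tested on simulated data. Input libraries entered only as control counts.

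The regions, lists and alternatives were chosen with earlier results of these data known. Islands were named by a rule: in each list the 3 longest and, among those of 10 or more control reads, the 3 of highest fold, over the lists the 5 sites of highest lowest fold, and the 3 autosomes of highest and of lowest median ratio. Other autosomes and the 5 classes of fold were added after values were seen. Alternatives were stricter lists, other windows, a stricter overlap, clipping and removal of piled-up islands or of chromosome 18. Island sequence was not read, since no mm9 genome was used here.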

Additional observations from a re-analysis of the deposited data

Results flagged for a closer look

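The difference between the stages in the covered share of the last 1 Mb had opposite signs in the genotypes: round spermatids minus spermatocytes was 0.448 percentage points in wild type and -0.223 in BD1del. The opposite signs were not particular to the ends. Over all autosomal 1-Mb windows, spermatocytes and round spermatids had 3.44% and 4.815% in wild type, and 6.17% and 5.65% in BD1del. In the adjacent 5 Mb they had 3.80% and 5.58%, and 6.24% and 6.04%. The ratio of end to adjacent cover differed between the stages by -0.476 in wild type and by 0.005 in BD1del, again round spermatids minus spermatocytes. Each value rests on 1 library per group, and neither difference between genotypes was tested.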

How the results depend on the processing

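No paired analysis was possible because each group had 1 library and no result came from a test. Of 273 recomputed values, 199 stayed within the interval or within 1.5 times the value given, 66 moved and 8 lay on the other side of 1. Depth limits which low-fold islands a list can hold, and it differs between lists. The cause of the changes below was not tested.

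With an FDR of at most 1e-10, density ratios were 0.919, 1.01, 1.005 and 0.974 (wild-type spermatocytes, wild-type round spermatids, BD1del spermatocytes, BD1del round spermatids). With 10000 islands per list they were 0.911 in wild-type spermatocytes and, in BD1del, 1.22 (spermatocytes) and 0.839 (round spermatids). With a fold of at least 2 they were 0.745 and 0.967 in wild type, with cover ratios of 0.797 and 0.972 and 7 denser ends in each. The last 0.5 Mb gave 1.69 and the last 2 Mb 1.14 in wild-type spermatocytes, the last 2 Mb gave 1.02 in wild-type round spermatids, and windows moved by 100 kb gave 1.21 in wild-type spermatocytes.

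Shares met under the FDR limit, the fold limit, 10000 islands and an overlap of 50% of the island were 38.4, 42.1, 25.6 and 46.0% for wild-type spermatocyte members by wild-type round spermatids. They were 21.7, 27.7, 21.4 and 16.2% for BD1del spermatocyte members by BD1del round spermatids, and 26.7, 26.0, 16.1 and 19.7% for wild-type round spermatid members by BD1del. For wild-type spermatocyte members by BD1del the last 3 of these settings gave 22.1, 22.2 and 24.6%. Shares of the adjacent islands under the same 4 settings, added after the data were examined, were 29.9, 40.9, 18.4 and 43.9%, then 16.8, 22.9, 9.88 and 10.7%, then 20.8, 24.5, 8.35 and 14.5%, and for the last pair 24.9, 7.49 and 20.3%.

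The recomputed comparisons of lists by autosome were added after the data were examined. Spermatocytes were the more covered stage in wild type at 0 ends with a fold of at least 2, at 16 with 10000 islands and at 2 over the last 2 Mb, and in BD1del at 3 under the FDR limit and at 7 under the fold limit. In spermatocytes wild type was the higher genotype at 0 ends under either limit, at 17 with 10000 islands, at 11 over the last 0.5 Mb and at 2 over the last 2 Mb; in round spermatids it was at 0 under either limit. Sites of all 4 lists numbered 18 under the FDR limit, 9 under the fold limit, 9 with 10000 islands, 62 in the last 0.5 Mb and 174 in the last 2 Mb. Leaving out piled-up islands moved no value beyond the limits set above. Even so, the sites of all 4 lists then numbered 83 instead of 103, and each share met was lower. Leaving out chromosome 18 moved 2 shares met in BD1del out of their intervals. It also brought the interval of the density ratio in wild-type round spermatids to include 1.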
